A study of Mus musculus with 8 samples.

Results

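The genes described here are a set of 7 transcripts used to identify horizontal cells of the retina: the transcription factor genes Lhx1, Onecut1, Onecut2, Onecut3 and Prox1, the calcium-binding protein gene Calb1 and the gap junction gene Gja10. They were taken by gene name from a table of 57010 genes, in which each name occurred once, and all 7 were among the 16118 genes that passed the expression filter of at least 1 transcript per 1000000 (TPM) in at least 4 of the 8 libraries. The RNA came from retinas of C57BL/6J mice aged 17 days in the oxygen-induced retinopathy model, where hyperoxia in early life prunes the retinal capillary bed and pathological vessels form once the animals breathe normal air again. A group of 4 knockdown libraries came from retinas given an scAAV (a viral vector of the adeno-associated, self-complementary type) against the long noncoding RNA MM2P, whose treatment label reads AAV KO, and 4 control libraries from retinas given a control scAAV. Both groups thus carried oxygen-induced retinopathy and a vector, and neither an untreated retina nor a room-air retina was compared. The promoter, serotype and dose of the vectors, the cells they reached and any pooling of animals are not stated in the labels used here.

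Horizontal cells are inhibitory interneurons of the outer retina. Their processes enter the synaptic terminals of rods and cones, and they return a feedback signal that sharpens contrast over the visual field. They are coupled to each other through gap junctions, which in the mouse contain connexin 57, the product of Gja10. During development the cells depend on the Onecut factors, Lhx1 and Prox1, and also on Foxn4 and Ptf1a. Calbindin, the product of Calb1, is the usual stain for these cells in the mature mouse retina, although it is also found in amacrine and ganglion cells, and Prox1 is also known from AII amacrine cells, bipolar cells, lymphatic endothelium and lens fibres.

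Library totals were 16.03 to 20.2 M estimated counts (M, 1000000) in the knockdown libraries and 20.45 to 21.4 M in the controls. The target RNA, listed as Mm2pr, had 0, 0, 2 and 20.6 estimated counts in knockdown libraries 1 to 4, against 1, 1, 16.95 and 7.34 in controls 1 to 4 (exact two-sided permutation p = 0.886 on TPM), so it does not check the group labels. Knockdown 3 stood apart in lens transcripts, with a summed level of 550 TPM over 22 lens markers, against 53.7 to 137 TPM in the other knockdown libraries and 12.4 to 16.8 TPM in the controls. Knockdown 1 had the lowest summed level of ganglion cell markers, 1648 TPM, against 1927 to 2054 TPM in the other knockdown libraries and 2010 to 2116 TPM in the controls. For each member the log2 fold change without knockdown 1, without knockdown 3 or without each in turn is given below.

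No gene of the set passed the test between knockdown and control retinas. In the quasi-likelihood test of edgeR with Benjamini-Hochberg adjustment over all tested genes, 0 of the 7 passed an adjusted p under 0.05, while 0.0620% of all tested genes did (10 of 16118; 0.0434% higher and 0.0186% lower in the knockdown). At an unadjusted p under 0.05 the count was 0 of the 7 in edgeR, against 5.27% of all tested genes (2.62% higher and 2.66% lower). DESeq2 and limma on log2(TPM + 1) also called 0 of the 7. The TPM ranges of both groups overlapped for each of the 7, while 2.95% of tested genes had no overlap (1.50% higher and 1.45% lower in the knockdown). Fold changes were positive for Lhx1, Onecut2 and Prox1 and negative for the other 4, and the median log2 fold change was -0.04, beside 0.00 for all tested genes. RNA was measured from whole retina, so fewer horizontal cells and less RNA per cell cannot be told apart, and a change limited to these cells would be diluted for any gene that other cells also express.

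The levels fell into a high pair and a group of 5 low transcripts. Averaged over the 8 libraries, Calb1 had 81.2 TPM and Prox1 76.2 TPM, at the percentiles 85.8 and 84.8 of all tested genes. Next came Lhx1 at 6.23 TPM, Onecut1 at 4.01 TPM, Gja10 at 3.46 TPM, Onecut3 at 1.86 TPM and Onecut2 at 1.82 TPM. Lhx1 was at the percentile 27.2 and the others were at 9.06 to 20.4. In single libraries Prox1 was 10.6 to 15.5 times as high as Lhx1 on the TPM scale, and Lhx1 was 1.33 to 2.20 times as high as Onecut1. The order of Prox1, Lhx1 and Onecut1 and that of Gja10 above Onecut3 held in 8 of 8 libraries. The pairs Calb1 and Prox1, Onecut1 and Gja10, and Onecut3 and Onecut2 kept the order of their means in 5 of 8 libraries each, so these neighbours did not differ beyond the spread between libraries. Calb1 and Prox1 together supplied 89.6% to 91.1% of the summed TPM of the set. That sum ran from 162 to 189 TPM in the knockdown libraries and from 167 to 183 TPM in the controls.

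**Figure D1:**
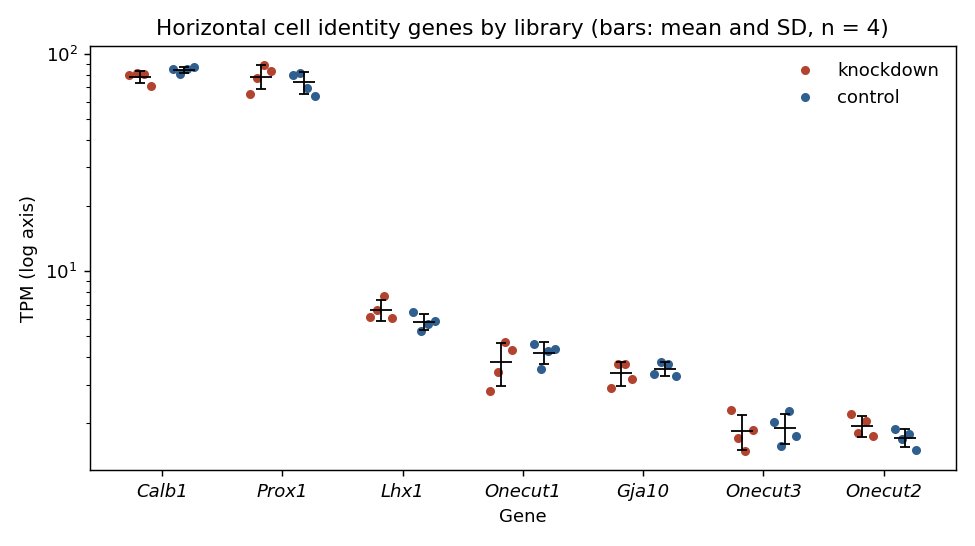
TPM of the 7 genes in each library on a log axis, ordered by mean level, with knockdown libraries (red) left of controls (blue); points are libraries 1 to 4 from left to right, and black bars are the mean and SD (n = 4). The 2 groups overlap for every gene, and Calb1 and Prox1 (64.1 to 88.6 TPM) lie above the other 5 (1.48 to 7.65 TPM) in every library.

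Lhx1 encodes a LIM homeodomain factor that directs horizontal cells to their layer (ENSMUSG00000018698; GRCm38 chromosome 11, 84518284 to 84525535, minus strand). It had 6.17, 6.59, 7.65 and 6.05 TPM in knockdown libraries 1 to 4, against 6.48, 5.27, 5.69 and 5.89 TPM in controls 1 to 4. Knockdown 3 was the highest of the 8 and control 2 the lowest, and the groups overlapped through control 1. The means were 6.62 ± 0.731 TPM in the knockdown and 5.83 ± 0.504 TPM in the controls (SD, n = 4 each; exact two-sided permutation p = 0.114). In edgeR this was a log2 fold change of 0.17 (SE 0.11, adjusted p = 0.972), with an approximate 95% interval of -0.10 to 0.44. Without knockdown 3 the log2 fold change of Lhx1 was 0.11, and without control 2 it was also 0.11.

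Lhx1 lies head to head with the noncoding gene Lhx1os, whose RefSeq start is separated from that of Lhx1 by 125 bases. The exons of the pair do not overlap in the GENCODE M21 annotation. The sequence between the starts is shown because it is all that separates this pair. Unlike Onecut1 with Gm20649 and Prox1 with Prox1os, the pair shares no exonic base in that annotation. It is given 5′ to 3′ on the Lhx1 strand, from RefSeq on GRCm38.p6, at chr11:84525535-84525659, with a CCAAT box (ATTGG, the reverse complement of CCAAT) and a cyclic AMP response element type match (TGACGTC) in capitals.
Lhx1 to Lhx1os: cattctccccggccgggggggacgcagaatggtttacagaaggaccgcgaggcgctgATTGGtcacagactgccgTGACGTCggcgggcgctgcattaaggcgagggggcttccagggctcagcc

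Lhx1os had 2.49, 1.75, 2.31 and 1.28 TPM in knockdown libraries 1 to 4, against 2.19, 2.85, 2.14 and 2.99 TPM in controls 1 to 4. The groups overlapped, and the log2 fold change of -0.38 (SE 0.26, edgeR adjusted p = 0.989) had the opposite sign to that of Lhx1. Neither gene passed the test, and neither pair of groups was separate.

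The Onecut factors bind DNA through a cut domain and a homeodomain, and in the mouse retina Onecut1 and Onecut2 are needed for the formation and survival of horizontal cells. Onecut1 (ENSMUSG00000043013; chromosome 9, 74861921 to 74891781, plus strand) had 2.81, 3.44, 4.71 and 4.32 TPM in knockdown libraries 1 to 4, against 4.63, 3.52, 4.30 and 4.39 TPM in controls 1 to 4. Knockdown 1 was the lowest library and knockdown 3 the highest, so the knockdown group spanned all 4 controls. The means were 3.82 ± 0.860 TPM and 4.21 ± 0.479 TPM (knockdown and control; SD, n = 4 each; exact two-sided permutation p = 0.486), with a log2 fold change of -0.16 (SE 0.16, edgeR adjusted p = 0.989; approximate 95% interval -0.55 to 0.23). Without knockdown 1 it was -0.05, and without knockdown 3 it was -0.26.

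The counts of Onecut1 are uncertain because the noncoding gene Gm20649 runs through it on the same strand and shares 2171 of the 4113 exonic bases of Onecut1. The rule by which reads were shared between the genes is not given in the sources used here. Gm20649 had 20.3, 48.04, 17.3 and 31.7 estimated counts in knockdown libraries 1 to 4, against 18.1, 43.7, 2.49 and 0 in controls 1 to 4. The summed counts of the overlapping pair were 107, 153, 136 and 169 in knockdown libraries 1 to 4, against 168, 158, 149 and 148 in controls 1 to 4. In counts per 1000000 scaled by TMM (CPM), the sum was 7.64 ± 1.26 in the knockdown and 7.54 ± 0.508 in the controls (SD, n = 4 each; exact two-sided permutation p = 0.914), while Onecut1 alone had 6.08 ± 1.22 CPM and 6.76 ± 0.871 CPM in the same groups. With the counts of Gm20649 added, an alternative chosen after the values were seen, the log2 fold change of Onecut1 changed sign to 0.02 (SE 0.13, edgeR adjusted p = 0.998). The coefficient of variation within groups was 12.7% for the sum and 16.5% for Onecut1 alone on the CPM scale.

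**Figure D2:**
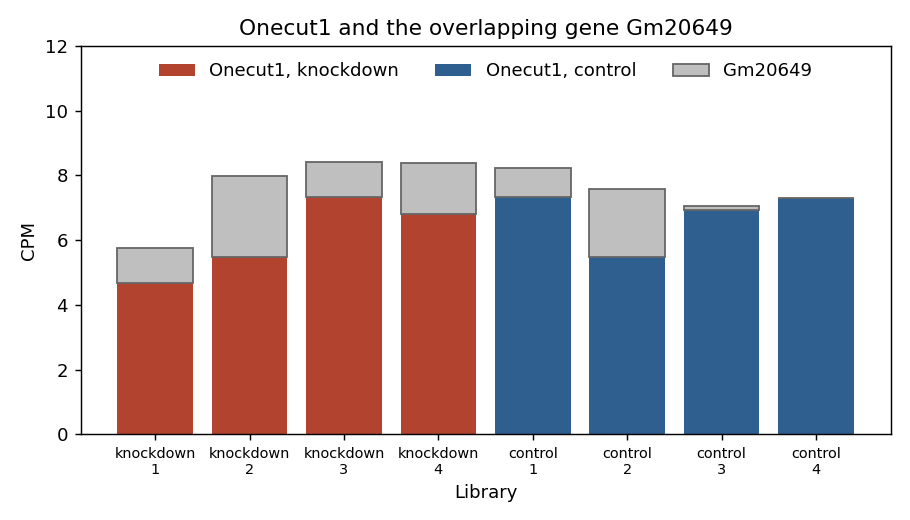
CPM of Onecut1 (red in knockdown, blue in control) with CPM of the overlapping gene Gm20649 stacked on top (grey) in each of the 8 libraries, linear axis from 0. Controls 3 and 4 have almost no Gm20649 (2.49 and 0 counts), and with both genes stacked 7 libraries lie between 7.04 and 8.41 CPM, while knockdown 1 is at 5.77 CPM.

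The 250 bases before the Onecut1 start lie within an intron of Gm20649, with 0 exonic bases of that gene in the window. They are shown to place the start of the shorter gene inside the longer one, 5′ to 3′ on the plus strand, from RefSeq on GRCm38.p6, at chr9:74861671-74861920, with a TGACGTC match (GACGTCA on this strand) in capitals.
Onecut1: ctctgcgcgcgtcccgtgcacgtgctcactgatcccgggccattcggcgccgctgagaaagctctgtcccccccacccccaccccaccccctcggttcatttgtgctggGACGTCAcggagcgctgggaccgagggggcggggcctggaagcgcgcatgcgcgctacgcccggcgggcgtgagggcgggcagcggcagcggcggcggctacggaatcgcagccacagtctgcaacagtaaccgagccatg

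Onecut2 and Onecut3 were the lowest members per length. Onecut2 (ENSMUSG00000045991; chromosome 18, 64340020 to 64400987, plus strand) had 2.19, 1.80, 2.05 and 1.73 TPM in knockdown libraries 1 to 4, against 1.88, 1.68, 1.78 and 1.496 TPM in controls 1 to 4. Knockdown 1 was highest and control 4 lowest, with overlap of the groups (means 1.94 ± 0.214 TPM in the knockdown and 1.71 ± 0.162 TPM in the controls; SD, n = 4 each; exact two-sided permutation p = 0.171). Its log2 fold change of 0.19 (SE 0.11, edgeR adjusted p = 0.967; approximate 95% interval -0.09 to 0.46) was the largest of the set, and it was 0.10 without knockdown 1. Although low per length, Onecut2 was listed with 16234 bases and so had 207 to 279 counts per library, more than Lhx1 with 166 to 204.

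Onecut3 (ENSMUSG00000045518; chromosome 10, 80494835 to 80517276, plus strand) had 2.30, 1.71, 1.48 and 1.85 TPM in knockdown libraries 1 to 4, against 2.02, 1.56, 2.26 and 1.74 TPM in controls 1 to 4. The highest and the lowest library were both knockdown libraries, 1 and 3. Its means were 1.83 ± 0.343 TPM in the knockdown and 1.90 ± 0.306 TPM in the controls (SD, n = 4 each; exact two-sided permutation p = 0.8286). That was -0.04 as a log2 fold change (SE 0.19, edgeR adjusted p = 0.998; approximate 95% interval -0.51 to 0.43), and it was 0.05 without knockdown 3 and 0.05 without control 3. Without knockdown 1 the log2 fold change of Onecut3 was -0.19. With 45 to 93 counts per library this gene, together with Gja10, had the fewest reads.

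Prox1 encodes a homeodomain protein that promotes horizontal cell fate as progenitors leave the cell cycle (ENSMUSG00000010175; chromosome 1, 190118035 to 190170714, minus strand). It had 65.2, 77.4, 88.6 and 83.0 TPM in knockdown libraries 1 to 4, against 80.0, 81.6, 69.3 and 64.1 TPM in controls 1 to 4. The highest library was knockdown 3, and the lowest were control 4 and knockdown 1, so the groups overlapped almost fully. The means were 78.5 ± 10.003 TPM in the knockdown and 73.8 ± 8.44 TPM in the controls (SD, n = 4 each; exact two-sided permutation p = 0.514), with a log2 fold change of 0.09 (SE 0.08, edgeR adjusted p = 0.989; approximate 95% interval -0.10 to 0.27). Lens transcripts, from a tissue that also uses Prox1, were highest in the same library, knockdown 3, and without it the log2 fold change of Prox1 was 0.04. Without knockdown 1 it was 0.15 (edgeR unadjusted p = 0.0362, edgeR adjusted p = 0.603). The part of lens RNA in the Prox1 level was not tested.

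In the GENCODE M21 annotation Prox1 overlaps the antisense gene Prox1os, which shares 133 of the 8390 exonic bases of Prox1. The labels do not state whether strand was used in counting. Prox1os had 8.65, 5.65, 5.77 and 4.27 TPM in knockdown libraries 1 to 4, against 5.91, 5.05, 3.62 and 5.22 TPM in controls 1 to 4 (log2 fold change 0.30, SE 0.24, edgeR adjusted p = 0.989). Prox1os had 40.1 to 87 counts per library and Prox1 4045 to 5286. The 250 bases before the first RefSeq start of Prox1 are shown because they lie within the span of this antisense gene, of which they hold 0 exonic bases. They are given 5′ to 3′ on the minus strand, from RefSeq on GRCm38.p6, at chr1:190170828-190171077, with a TATA box match (TTTATA, the reverse complement of TATAAA) in capitals.
Prox1: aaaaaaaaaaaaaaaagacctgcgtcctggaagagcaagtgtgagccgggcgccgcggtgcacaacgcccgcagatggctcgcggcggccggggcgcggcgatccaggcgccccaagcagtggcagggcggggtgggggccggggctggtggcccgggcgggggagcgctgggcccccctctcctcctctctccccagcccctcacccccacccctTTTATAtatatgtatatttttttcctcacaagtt

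RefSeq windows of 250 bases before a start were found for 4 of the 7 genes, and 5 windows were searched on both strands, 2 of them for Prox1. The Onecut-type words ATCAAT and ATCGAT and the homeodomain word TAATTA were found in 0 of the 5. They were found in 6.72%, 0.728% and 4.84% of all 32851 RefSeq windows, which do not cover every gene. TGACGTC, a word added after the sequences were read, occurred in the windows of Lhx1, Onecut1 and Gja10, and in 2.78% of all windows. TATAAA occurred at the first Prox1 start and in the Gja10 window, beside 12.4% of all windows, and CCAAT in the Lhx1 window, beside 33.9%. The Onecut1, Lhx1 and first Prox1 windows were rich in G and C (71.6%, 64.8% and 64.8%, against a median of 52.4% over all windows), whereas that of Gja10 had 41.2%. These matches are descriptions of the windows.

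Calb1 encodes calbindin, a cytosolic buffer of calcium ions (ENSMUSG00000028222; chromosome 4, 15881264 to 15908064, plus strand). It had 80.0, 81.3, 80.5 and 70.9 TPM in knockdown libraries 1 to 4, against 84.9, 80.5, 85.3 and 86.6 TPM in controls 1 to 4. Controls 1, 3 and 4 lay above all 4 knockdown libraries, while control 2 lay among them, and knockdown 4 was the lowest by far. The means were 78.2 ± 4.88 TPM in the knockdown and 84.3 ± 2.67 TPM in the controls (SD, n = 4 each; exact two-sided permutation p = 0.0857). The log2 fold change was -0.11 (SE 0.06, edgeR unadjusted p = 0.0886, adjusted p = 0.951), with an approximate 95% interval of -0.27 to 0.04, or 0.832 to 1.03 on the linear scale. Without knockdown 4 it was -0.06, and without knockdown 1 it was -0.15 (edgeR unadjusted p = 0.0288, adjusted p = 0.582). Without control 2 it was also -0.15 (edgeR unadjusted p = 0.0349, adjusted p = 0.964). Among the identity genes Calb1 had the smallest spread and the narrowest interval.

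Calb1 is also expressed by amacrine and ganglion cells, and the fold changes of their markers are given beside it. Of 16 tested amacrine markers 0 passed the test in edgeR, 12 had negative fold changes (48.2% of all tested genes did), and the median was -0.07 on the log2 scale. Of 16 tested ganglion cell markers 1 fell, Slc17a6, which encodes the vesicular glutamate transporter of these cells, at 52.01 ± 5.86 TPM in the knockdown and 70.5 ± 3.38 TPM in the controls (SD, n = 4 each; log2 fold change -0.44, edgeR adjusted p = 0.0465). Negative fold changes were seen for 12 of these 16 genes, and the median was -0.12. At an unadjusted edgeR p under 0.05, 3 amacrine markers were lower and 1 higher, and 5 ganglion cell markers were lower and 0 higher. Over all tested genes 2.66% were lower and 2.62% higher at that threshold. The summed amacrine markers ran from 444 to 508 TPM in the knockdown and from 490 to 535 TPM in the controls. The number called among ganglion markers was 1 in DESeq2 and 0 in limma on log2(TPM + 1), and in edgeR it was 1 without control 3 and 0 without any other library. The part of these cells in the Calb1 level was not tested.

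Gja10 encodes connexin 57, known in the mouse retina as the horizontal cell connexin (ENSMUSG00000051056; chromosome 4, 32596960 to 32602760, minus strand). It had 2.89, 3.73, 3.72 and 3.17 TPM in knockdown libraries 1 to 4, against 3.35, 3.81, 3.72 and 3.27 TPM in controls 1 to 4. Knockdown 1 was lowest and control 2 highest, and the groups overlapped over most of their range. The means were 3.38 ± 0.415 TPM in the knockdown and 3.54 ± 0.267 TPM in the controls (SD, n = 4 each; exact two-sided permutation p = 0.429). That was -0.07 as a log2 fold change (SE 0.17, edgeR adjusted p = 0.997; approximate 95% interval -0.49 to 0.34, or 0.714 to 1.26 on the linear scale), and without knockdown 1 it was -0.02. These values rest on 48 to 68 counts per library, where counting alone gives a coefficient of variation of 13.1%, above the 10.1% observed within groups.

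The spread within groups was set beside the error from counting, both as coefficients of variation. For Gja10 the spread within groups was no larger than counting error. For Lhx1 it was 10.1% against a counting error of 7.28%, for Onecut2 10.4% against 6.54%, and for Onecut3 17.4% against 11.9%. Onecut1 had 17.3% against 8.91%. Prox1 had 12.2% against 1.45%, the widest gap of the set. Calb1 had 4.84% against 1.91%. Over the 7 genes the approximate 95% intervals reached no lower than 0.684-fold (Onecut1) and no higher than 1.37-fold (Onecut2), and a change of 2-fold lay outside each of them.

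**Figure D3:**
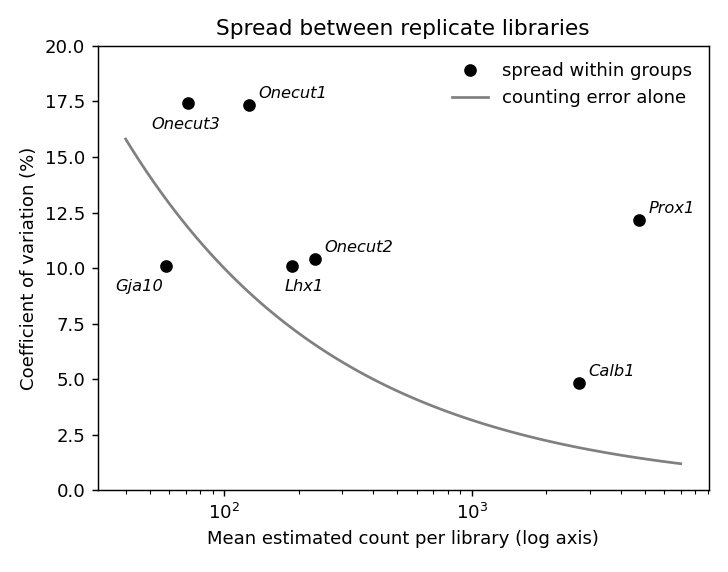
Coefficient of variation of TPM within groups (%, pooled over knockdown and control, n = 4 each) against the mean estimated count per library (log axis) for the 7 genes; the grey line is the error from counting alone. Gja10 lies below the line at 10.1%, and Prox1 at 12.2% lies farthest above it relative to its counting error of 1.45%.

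The 7 genes did not rise and fall together across libraries. Relative to the mean of the 8 libraries on the log2 CPM scale, knockdown 1 had Onecut3 at 0.38 and Onecut2 at 0.33, but Onecut1 at -0.44, Gja10 at -0.19 and Prox1 at -0.16. Knockdown 3 had Lhx1 at 0.27, Onecut1 at 0.21 and Prox1 at 0.19, but Onecut3 at -0.35. On the TPM scale knockdown 1 held the highest value of 2 genes and the lowest of 2 others, and knockdown 3 the highest of 3 and the lowest of 1. On both scales control 4 had the highest Calb1 and the lowest Prox1 and Onecut2. In that library Calb1 was 1.35 times as high as Prox1 on the TPM scale, against 0.854 times in knockdown 4, so the 2 abundant members moved apart. Within a library the number of members above their own mean ran from 2 in knockdown 4, control 2 and control 4 to 6 in control 1.

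**Figure D4:**
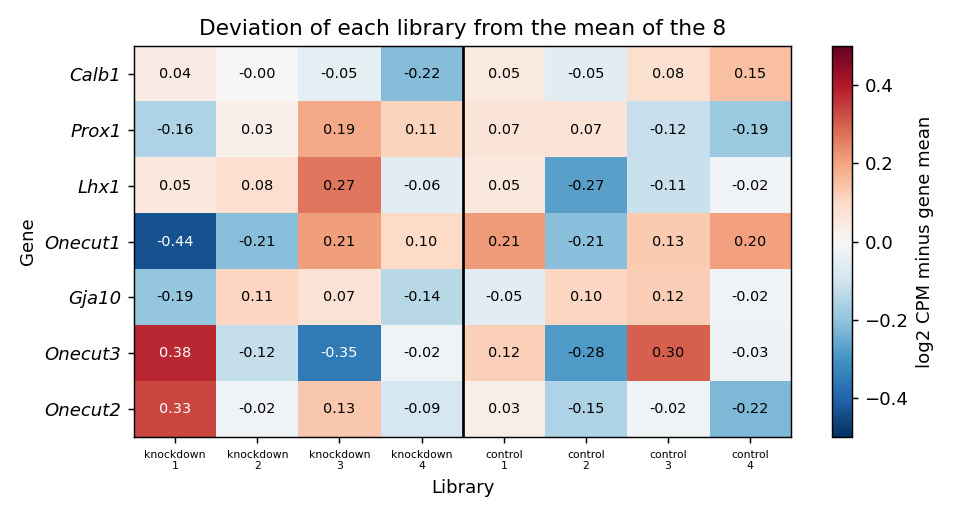
Deviation of each library (columns, knockdown left of control) from the gene's mean over the 8 libraries, in log2 CPM, for the 7 genes (rows); red is above and blue below the mean. Knockdown 1 has Onecut2 and Onecut3 above (0.33 and 0.38) and Onecut1 below the mean (-0.44), and no column is of 1 colour.

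The tested genes whose log2 CPM was most like that of a member over the 8 libraries differed from member to member. By Pearson's r, given as a description over 15971 genes with counts in every library, they were the noncoding gene C630043F03Rik for Lhx1 (r = 0.989), the growth factor gene Fgf18 for Onecut1 (0.972), the bone morphogenetic protein gene Bmp3 for Onecut2 (0.982), Wdhd1 for Onecut3 (0.967), Chmp3 for Calb1 (0.969), Tbcel for Gja10 (0.955) and Gm15601 for Prox1 (0.976). The next genes were Prelid3b for Lhx1 (0.985), Ddx4 for Onecut1 (0.958), Gm43488 for Onecut2 (0.965), Bloc1s5 for Onecut3 (0.957), A930017K11Rik for Calb1 (0.967), Mastl for Gja10 (0.948) and Kat6b for Prox1 (0.976). No member was among the 2 genes most like another member. Between 12 genes, for Gja10, and 141 genes, for Prox1, had an r above 0.9, as the best of many genes compared over 8 libraries that differed in depth.

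Other genes of horizontal cells were described beside the set. Of 9 such genes present in the file, 7 were tested, 0 passed in edgeR (0 at an unadjusted p under 0.05, 0 in DESeq2 and 0 in limma on log2(TPM + 1)), 3 had positive and 4 negative fold changes, and the median was -0.01 on the log2 scale. Septin4, a septin gene used as a horizontal cell marker, had 107 ± 8.49 TPM in the knockdown and 113 ± 0.976 TPM in the controls (SD, n = 4 each; log2 fold change -0.08, SE 0.05). Tfap2b, an AP-2 transcription factor gene of horizontal and amacrine cells, had 102 ± 13.1 TPM in the knockdown and 101 ± 5.16 TPM in the controls (log2 fold change 0.01, SE 0.07). Knockdown 1 was the low library of this list too, with a summed level of 276 TPM against 339 to 348 TPM in the other knockdown libraries and 324 to 348 TPM in the controls, and without that library 0 of the 7 passed in edgeR and 0 had an unadjusted p under 0.05. Ptf1a and Foxn4, factors on which horizontal cells depend during development, were near their detection limit, with 0 to 3 and 0 to 2 counts per library at this age.

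**Figure D5:**
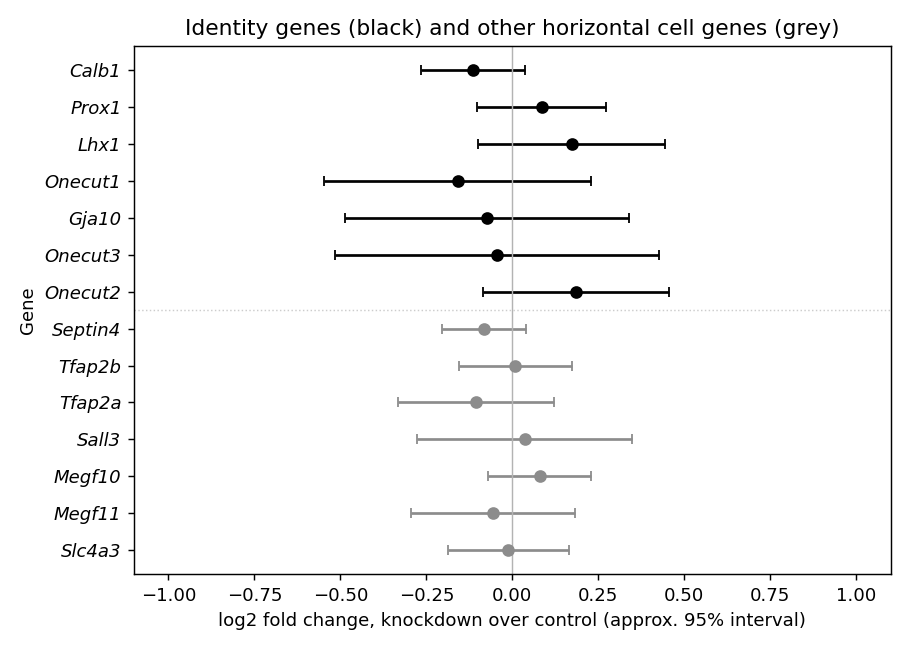
edgeR log2 fold change, knockdown over control (n = 4 each), with approximate 95% intervals, for the 7 identity genes (black, above the dotted line, ordered by mean TPM) and 7 other horizontal cell genes (grey). Every interval crosses 0, and that of Calb1 runs from -0.27 to 0.04 and that of Septin4 from -0.21 to 0.04.

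Among 8 genes of transmitter storage, synthesis and feedback, 0 passed over all genes in edgeR, DESeq2 and limma on log2(TPM + 1). While 5.27% of all tested genes had an unadjusted edgeR p under 0.05, 1 of the 8 did. That gene, Slc32a1, named here after its values were seen, encodes the vesicular transporter of GABA and glycine used by horizontal and amacrine cells. It had 50.3, 52.7, 56.3 and 57.6 TPM in knockdown libraries 1 to 4, against 63.6, 65.0, 61.8 and 56.0 TPM in controls 1 to 4. The controls were higher except for control 4, which lay below knockdown 3 and 4 (log2 fold change -0.19, SE 0.05, unadjusted p = 0.00286, edgeR adjusted p = 0.433). Gad1, which encodes an enzyme of GABA synthesis, had 197 ± 26.6 TPM in the knockdown and 207 ± 9.95 TPM in the controls, and the potassium chloride cotransporter gene Slc12a5 had 378 ± 32.7 TPM and 397 ± 33.7 TPM in the same groups (SD, n = 4 each).

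The gene families of the members were described in the same way. Of 4 tested retinal connexin genes 0 passed and 1 had an unadjusted edgeR p under 0.05 (5.27% of all tested genes did). This was Gja4, named after its values were seen (log2 fold change -0.41, edgeR adjusted p = 0.930). Gjd2, the connexin of AII amacrine and photoreceptor coupling, had 150 ± 9.23 TPM in the knockdown and 158 ± 5.58 TPM in the controls (SD, n = 4 each), and Gja1, the connexin 43 gene of glia, had 27.2 ± 3.82 TPM and 22.7 ± 3.51 TPM in the same groups. Of 6 tested LIM homeobox genes 0 passed, 0 at an unadjusted p under 0.05, with Isl1 at 132 ± 11.4 TPM in the knockdown and 124 ± 10.7 TPM in the controls, and Lhx2 at 29.8 ± 1.38 TPM and 29.5 ± 2.18 TPM (SD, n = 4 each). Of 6 tested EF-hand calcium-binding protein genes, which were not all calcium buffers, 0 passed in edgeR and 3 were lower at an unadjusted p under 0.05. Over all tested genes the share lower at that threshold was 2.66%. Counted in either direction, 3 of these genes were under it in DESeq2 and 1 in limma on log2(TPM + 1). In edgeR the count was 1 without knockdown 1 and 0 with a covariate for Y-linked expression. Recoverin, Rcvrn, had 2925 ± 294 TPM in the knockdown and 2936 ± 86.1 TPM in the controls (SD, n = 4 each; log2 fold change -0.01). Among the 3 that were lower in edgeR was Calb2, the calretinin gene, at 694 ± 72.9 TPM in the knockdown and 759 ± 8.73 TPM in the controls (log2 fold change -0.14, SE 0.06, edgeR adjusted p = 0.930). DESeq2 and limma on log2(TPM + 1) called 0 genes of these 3 lists.

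Among markers of the remaining classes, lens alone gave calls in edgeR. Of 14 bipolar, 10 Müller glia and 12 photoreceptor markers 0 passed in edgeR, DESeq2 or limma on log2(TPM + 1). At an unadjusted edgeR p under 0.05 the counts were 0, 0 and 2, beside 5.27% of all tested genes. Bipolar fold changes were positive for 14 of 14 (median 0.04) and photoreceptor fold changes negative for 12 of 12 (median -0.06), where 48.2% of all tested genes were negative. The Müller glia enzyme gene Glul had 2422 ± 164 TPM in the knockdown and 2498 ± 73.6 TPM in the controls (SD, n = 4 each). Of 11 endothelial and lymphatic markers 0 passed in the same tests and 4 were lower at an unadjusted edgeR p under 0.05 (median -0.17). Over all tested genes 2.66% were lower at that threshold. Counted in either direction, 4 of these markers were under it in DESeq2 and 1 in limma on log2(TPM + 1). In edgeR without knockdown 1 the count was 2. Of 14 tested lens markers 7 rose in the knockdown, among them the crystallin gene Cryaa at 42.5 ± 45.4 TPM in the knockdown and 0.379 ± 0.365 TPM in the controls (SD, n = 4 each; log2 fold change 6.73, edgeR adjusted p = 0.0280). These 7 were the only genes called higher among the 16118 tested (0.0434%). Lens genes near 0 in the controls passed the filter only through the knockdown libraries and so had to differ. The number of lens genes called in edgeR was 6 of 14 tested without control 3 and 0 without any other control, with 13 or 14 tested. It was 10 in DESeq2 and 0 in limma on log2(TPM + 1). Without any knockdown library it was 0, where 3 or 4 lens genes passed the filter. That filter still required 4 libraries, which genes such as Cryaa reached only through the 4 knockdown libraries. Such genes were not tested in these fits, so these counts of 0 were set by the filter and do not measure stability.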

How the data were processed

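Although its name says TPM, the deposited file contains estimated counts: its libraries sum to 16.03 to 21.4 M (M, 1000000), and 77.5% to 79.9% of the values above 0 in a library are exactly whole (90.6% to 91.9% with zeros included). Per the submitters' processing notes, the tool Bowtie 0.12.2 and the build mm9 are listed without their roles. Neither the counting tool nor the annotation is given in the sources used here. Gene positions and exon overlaps came from GENCODE M21 on GRCm38, matched by identifier. Its exonic bases differ from the lengths listed in the file for Lhx1os (698 against 1844) and Prox1os (828 against 1282). The stated overlaps may therefore not hold for the annotation behind the counts. The authors' group means were not used.

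For tests the counts were rounded. TPM was derived with the gene lengths listed in the file. Genes with at least 1 TPM in at least 4 libraries were tested with edgeR 4.0.16 (R 4.3.3; TMM, quasi-likelihood, group as the only term), and calls used a Benjamini-Hochberg adjusted p under 0.05. SE was obtained by dividing the size of the log2 fold change by the root of F, and approximate 95% intervals use 6 residual degrees of freedom. Permutation tests covered all 70 assignments, with 0.0286 the smallest p possible. Counting error is that of independent reads and covers counting alone. The fit was tested on simulated counts. The members and the 12 lists of other genes were chosen with earlier results of these data known. Named genes were the members, up to 4 called genes of a list or else the 2 with the highest TPM, and the 2 most alike gene patterns of each member; Slc32a1 and Gja4 were added after their values were seen.

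Replicates are separate samples per the labels, which do not say that they are separate animals, so p-values measure the spread between these samples. Over 28 pairs of libraries, count differences varied at least 4.94 times as much as counting error, so no library was counted as a duplicate. Alternatives were DESeq2 1.42.0, limma 3.58.1, other scaling, filters, pseudocounts and dispersion, a replicate block, a covariate for Y-linked expression, and leaving out each library.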

Additional observations from a re-analysis of the deposited data

Results flagged for a closer look

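Over 90 groups of 4 libraries examined, 5 had a highest or lowest value far from the rest of its group, and chance gives about 1 in 20. Calb1 had 70.9 TPM in knockdown 4, against 80.0 to 81.3 TPM in the other knockdown libraries. Septin4 had 115 TPM in control 1, against 112.6 to 113 TPM in the other controls. Gad1 had 157 TPM in knockdown 1, against 207 to 215 TPM in the other knockdown libraries. Mm2pr had 1.47 TPM in knockdown 4, against 0 to 0.181 TPM in the other knockdown libraries. The crystallin gene Cryge had 0.387 TPM in control 2 and 0 in the other controls, a value of a few reads.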

How the results depend on the processing

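No alternative called any of the 7 genes. Of their log2 fold changes under the alternatives, 133 kept the reported sign and 3 did not: Onecut3 without knockdown 3 (0.051) and without control 3 (range -0.1941 to 0.0539 over the libraries left out), and Onecut1 with Gm20649 added (0.0155). The number of genes called over the whole table was 10, and it was 45 in DESeq2, 157 with no expression filter, 1 when a mean of 5 TPM was required (which leaves Lhx1, Calb1 and Prox1 of the set), 0 in limma on log2(TPM + 1), 0 in limma on log2(TPM + 5), 0 with a robust dispersion, and 0 to 57 with a library left out (57 without control 3). With a knockdown library left out, lens genes such as Cryaa failed the filter and were not tested. The cause of the other differences was not tested. The replicate block gave 11 calls over all genes, 0 among the members and 0 among the ganglion markers, with 4 same-numbered correlations of deviations of 0.007, -0.007, -0.031 and -0.183. No library correlated best with its own number, so these correlations gave no sign of pairing by number. Correlations this weak cannot show that pairing was absent. Counts of 45 to 93 (Onecut3) and 48 to 68 (Gja10) limit what can be seen for these genes.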
